A study of Mus musculus with 20 samples.

Results

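The stretch of mouse 18S ribosomal RNA that follows position 670 and ends at position 930, labelled its central domain expansion region, was described here through the signals that dimethyl sulfate (DMS) left along it. The members were chosen by position alone and number 260 of the 1840 positions in the deposited table. No measured value entered the rule, but the members were chosen with earlier results of these data known. The table holds neither bases nor helices, so the domain label could not be checked against it.

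18S rRNA is the RNA of the small ribosomal subunit, and its central domain forms the platform of that subunit. In animals this domain carries expansion segments, insertions that bacterial ribosomes lack and that lie mostly on the outer surface of the subunit. DMS enters living cells and methylates the pairing faces of adenines and cytosines that are free to react. A reverse transcriptase that reaches a methylated base can fall off, which leaves a stop, or can copy past it with a wrong base, which leaves a mutation.

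The cells were mouse embryonic fibroblasts from female embryos of the cross F1:129S1/CastEiJ x 129S1, and they were either left untreated or exposed to 0.5% DMS for 5 min. The labels list 4 kinds of reverse transcription, SSIII at 55 °C, AMV at 42 °C, TGIRT-II at 60 °C and another under the name Zhao that is not explained, each with and without DMS and with 2 replicate letters. Beside these 16 stand 4 SSIII samples without a letter, untreated or DMS-treated, reverse transcribed without or with Mn2+. The table's names show the treatment of the 16 libraries and link each DMS library to its own untreated control, but not which enzyme or letter a library had. The libraries were therefore compared as 8 untreated against 8 DMS libraries in 8 linked pairs, numbered 1 to 8 here by the name of the control, and the 4 libraries of the Mn2+ experiment were kept apart. The pairs fall into 3 sets by the shared start of their names, with pairs 1 to 4, pairs 5 and 6, and pairs 7 and 8.

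Each value is a share of reads, given here in percent, of stops or of mutations at a position. The depth of the libraries is unknown, the denominator of the share and the rule that assigns a stop to the methylated base or to its neighbour are not given in the sources used here, and no counting interval can be computed. Cells were grown on duplicate plates per the labels, so several pairs may share the RNA of 1 culture, and the p-values measure only the spread between these libraries. In the untreated libraries of pairs 2 and 3, 32.3% and 25.4% of the stop values and 71.2% and 50.8% of the mutation values in this stretch were exactly 0, against at most 18.5% and 21.9% in the other 14 libraries. The untreated library of pair 4 had a mean stop fraction of 1.26%, against 0.319% to 0.697% in the other 7. The counts of calls are given with and without these pairs.

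With DMS, reverse transcription stopped more often at 20 of the 260 positions and less often at another 20, and it left more mutations at 16. The strongest stop signal was the neighbouring pair 870 and 871, where the median library went from 1.09% to 12.7% and from 0.670% to 8.87%. The strongest mutation signal was at 836, at the centre of a cluster from 831 to 848. The calls rest on limma fitted to log2 of the percentage plus 0.1 over all positions of the RNA, with each pair as a block and an adjusted p (Benjamini-Hochberg) below 0.05. Without pairs 2 and 3 the counts were 11 higher and 7 lower for stops and 12 for mutations, and without pair 4 they were 13, 9 and 11. With the differences averaged within the 3 name sets, limma called 0 positions in each direction. In that fit 16 of the 260 positions were higher and 46 lower for stops, and 45 higher for mutations, at an unadjusted p below 0.05. No share over the whole RNA is given for these unadjusted counts, so they cannot be read as particular to the stretch.

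Over the whole RNA 8.33% of the 1776 positions with stop values were called higher with DMS, and within the stretch the share was 7.69%. Lower calls were made at 1.63% of all tested positions, at 7.69% of the positions in this stretch and at 0.594% of the 1516 tested positions outside it, which is 9 positions. For mutations 4.67% of 1840 positions were called higher, and 6.15% in this stretch. No mutation call was lower anywhere in the RNA, where the background is 0%, and 1 of the 260 positions was lower at an unadjusted p below 0.05 in the same limma fit. The share of higher stop calls was thus near that of the RNA, and the share of lower stop calls lay above it, a difference between regions that was not itself tested. Among the alternative fits, a whole-RNA count is given only for lower stop calls with centring and for the name-set averages. Whether the lower share stays above that of the RNA in the others is not shown. Without any p-value, stops were higher in all 8 pairs at 12 positions (4.62%, against 6.76% over the RNA) and lower in all 8 at 22 (8.46%, against 2.48%). Mutations were higher in all 8 pairs at 13 positions (5%, against 5.82%) and lower in all 8 at none, against 0.435% over the RNA.

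**Figure D1:**
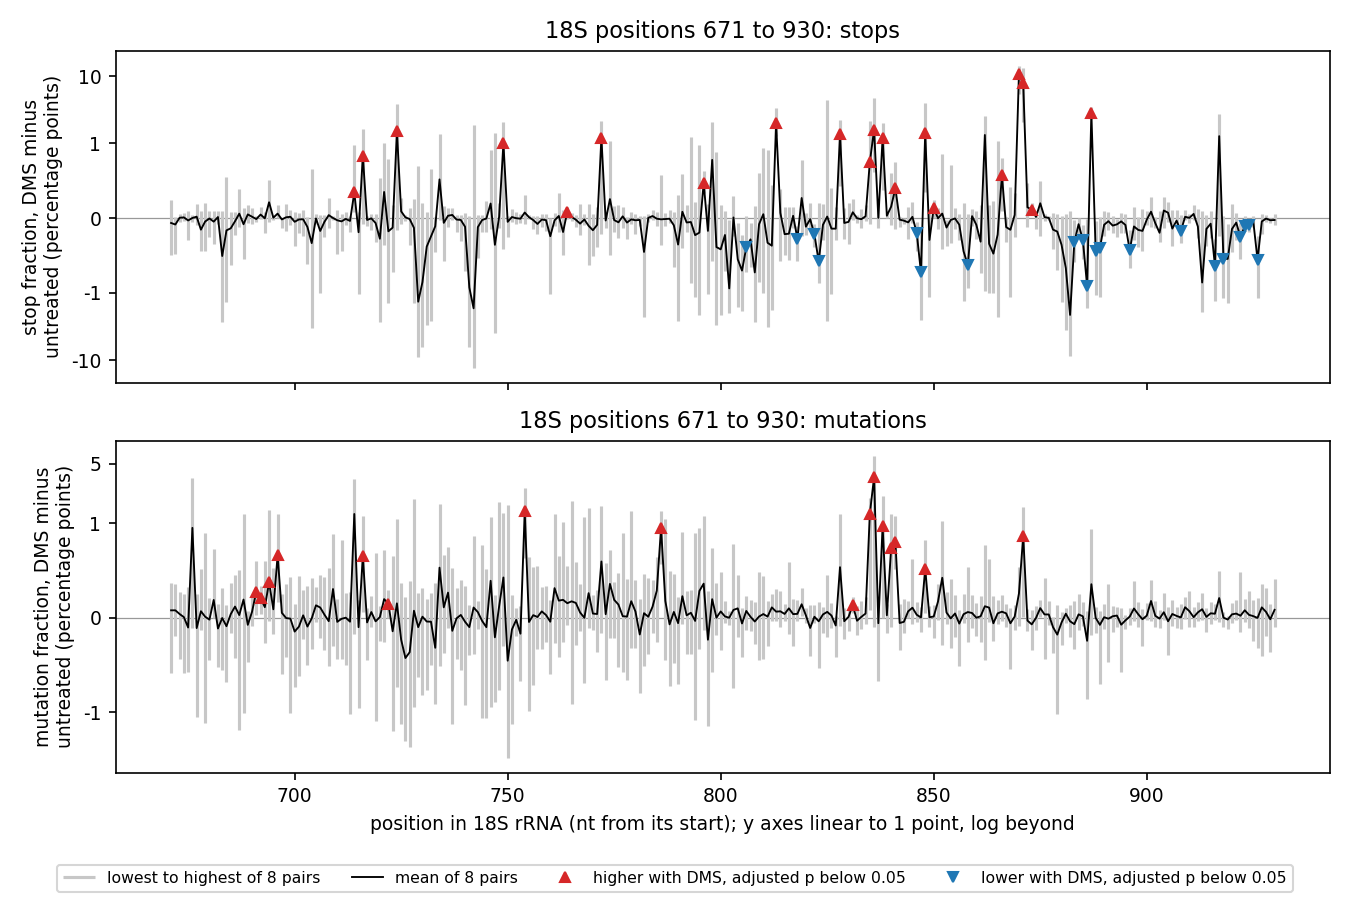
DMS minus untreated difference in the stop fraction (top) and the mutation fraction (bottom), in percentage points on an axis that is linear to 1 point and logarithmic beyond, against position in 18S rRNA. The black line is the mean of 8 pairs, grey bars run from the lowest to the highest pair, and triangles mark positions with a limma adjusted p below 0.05, with lower calls only for stops and all of them between 806 and 926.

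The stop fraction differed along the stretch before any treatment. The median position had an untreated stop fraction of 0.0823% in the 130 positions up to 800 and of 0.392% in the 130 after it. In windows of 20 positions, over the 16 untreated and DMS libraries together, 9.38% to 38.1% of the stop values were 0 before position 791 and at most 3.44% after it. Of the 20 higher stop calls, 7 lay in the first 130 positions and 13 in the second, and all 20 lower calls lay in the second. Their untreated medians had a median of 0.720%. Mutation calls were split evenly, with 8 on each side. The part of the untreated level in where the lower calls lie was not tested.

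The main stop signal was at 870. Untreated libraries ran from 0.664% to 3.77% there, with a median of 1.09%, and DMS libraries from 7.82% to 15.6%, with a median of 12.7%. The groups did not overlap, and 870 held the highest stop fraction of the whole stretch in 6 of the 8 DMS libraries. The mean rise was 10.7 points (SD 3.08, n = 8 pairs), and the fitted log2 fold on the scale of the percentage plus 0.1 was 3.12 ± 0.32 (SE, limma adjusted p = 0.000516). Pairs 5 and 6 rose least, by 6.40 and 5.42 points, against 11.1 to 14.2 in the other 6 pairs.

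At the neighbouring position 871 the untreated libraries ran from 0.216% to 4.47%, with a median of 0.670%, and the DMS libraries from 4.35% to 13.7%, with a median of 8.87%. Here 1 untreated library, that of pair 5, reached into the range of the treated ones. The rise was 7.77 points on average (SD 4.79, n = 8 pairs), with a log2 fold of 3.15 ± 0.53 (limma adjusted p = 0.00664). The size differed between the name sets, at 12.2 points in pairs 1 to 4, 2.82 in pairs 5 and 6 and 3.95 in pairs 7 and 8, where 870 had 12.6, 5.91 and 11.7 points. So 870 and 871 stopped reverse transcription about equally in the first set, while 870 led in the other sets. Just before them, 869 showed no such signal in these pairs, with medians of 0.810% and 0.833% and a mean difference of 0.0427 points (limma adjusted p = 0.737). Just after them, stops at 873 rose by 0.112 points on average in all 8 pairs (limma adjusted p = 0.0182), from a median of 0.125% to 0.244%.

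Position 887 gave the most even response. Its untreated stop fraction ran from 0.388% to 1.91%, with a median of 0.955%, and its DMS stop fraction from 2.70% upward, with a median of 4.01%. The groups did not overlap. The rise was 2.85 points (SD 0.401, n = 8 pairs), with a log2 fold of 2.00 ± 0.18 (limma adjusted p = 0.000302) and set means of 3.17, 2.65 and 2.42 points. The positions on both sides of it, 886 and 888, were called lower.

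The other leading stop positions were 813, 836, 848, 828 and 838. At 813 the median went from 1.47% to 3.24%, a rise of 2.00 points (SD 0.639) in 8 of 8 pairs (limma adjusted p = 0.00228), and the untreated library of pair 6, at 3.76%, lay inside the range of the DMS libraries. At 828, with a median of 0.293% untreated and 1.70% with DMS, and at 838, with 0.181% and 1.29%, the groups did not overlap. The log2 folds were 2.11 ± 0.26 at 828 and 2.24 ± 0.31 at 838 (limma adjusted p = 0.00119 and 0.00221). Both positions rose more in pairs 1 to 4, by 2.06 and 1.83 points, than in the other sets, where the means were 0.384 to 0.782 points.

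Positions 836 and 848 set 2 pairs apart. At 836 the DMS stop fraction was 5.51% in pair 3 and 5.34% in pair 4, and 0.735% to 1.25% in the other 6 pairs, with untreated libraries from 0.0404% to 1.29%. At 848 it was 3.55% and 4.67% in the same pairs and 1.07% to 1.67% in the others, with untreated libraries from 0.252% to 0.779%. All 8 pairs rose at both, by 1.60 points on average (SD 1.73, limma adjusted p = 0.000468) and by 1.43 points (SD 1.35, limma adjusted p = 0.0095). With the fit in percentage points instead of log2 values neither was called, with an adjusted p of 0.153 and 0.0992.

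**Figure D2:**
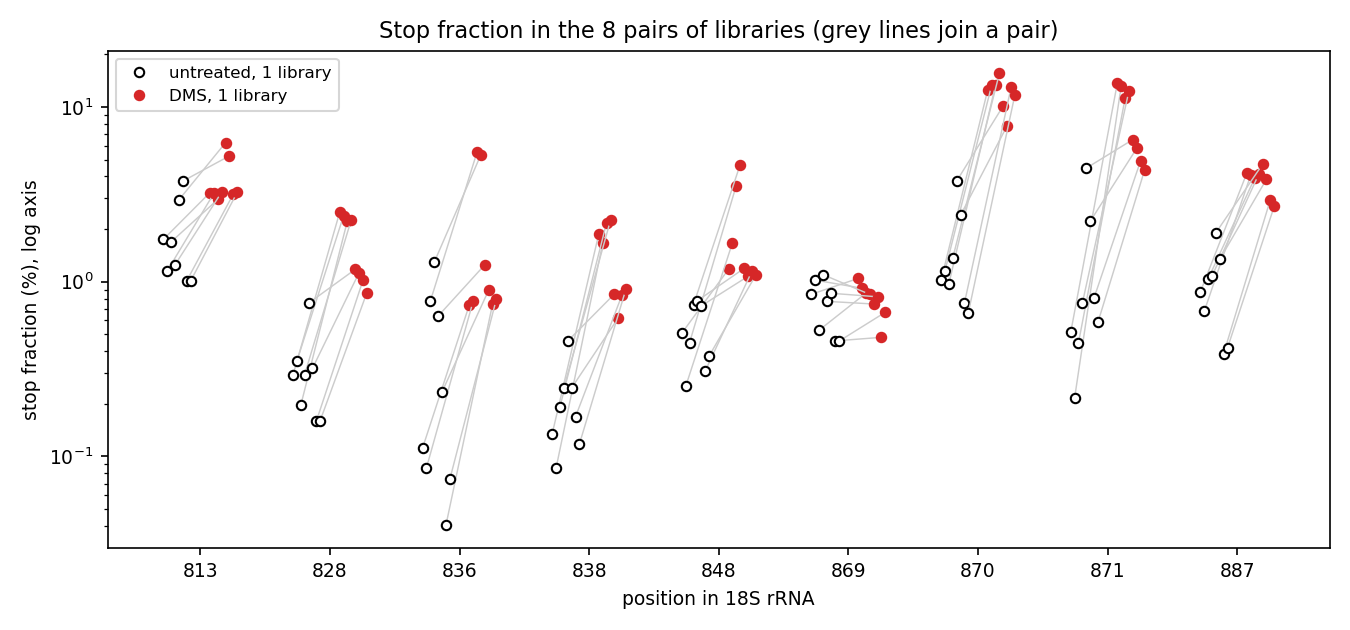
Stop fraction in percent, on a log axis, in each of the 8 untreated (open) and 8 DMS (red) libraries at the 8 leading positions and at 869, with grey lines joining a pair. The red points lie clear of the open ones at 828, 838, 848, 870 and 887, and the groups lie on top of each other at 869.

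The remaining 12 higher stop calls were smaller or less even. In the first 130 positions they were 714, 716, 724, 749, 764, 772 and 796, with mean rises from 0.0859 points at 764 to 1.52 points at 724. At 716, 724, 749 and 772 the first set carried most of the rise, with 1.54, 2.65, 1.93 and 2.06 points, against means from -0.102 to 0.0319 points in pairs 5 and 6. Position 796 was the exception, with 0.440, 0.507 and 0.486 points in the 3 sets. In the second 130 positions, 835, 841, 850, 866 and 873 completed the list. At 866 the groups did not overlap, with untreated libraries up to 0.717% and DMS libraries from 0.805%. Across all 20 higher calls, 12 rose in all 8 pairs, 17 had a positive mean in all 3 sets, and 6 had groups that did not overlap. The same 8 pairs made the calls, so these counts describe the calls and are not separate support for them. The set and overlap counts have no share over the whole RNA beside them.

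The 20 lower stop calls were modest and closely spaced, at 806, 818, 822, 823, 846, 847, 858, 883, 885, 886, 888, 889, 896, 908, 916, 918, 922, 923, 924 and 926. Their log2 folds lay between -0.76 and -0.42, with a median of -0.59, against a median of -0.12 over the stretch and -0.0082 over the RNA. Of these 20 positions, 11 had a directly neighbouring position that was also lower, 13 fell in all 8 pairs, and 19 had a negative mean in all 3 sets. These counts too come from the pairs that made the calls and are not separate support. The neighbour and set counts have no share over the whole RNA beside them. The groups overlapped at all 20 lower calls except 924, where the untreated libraries ran from 0.107% to 0.263% and the DMS libraries from 0.0352% to 0.102%. At 3 of the 20, the next position was a called rise, namely 847 beside 848 and both 886 and 888 beside 887. Whether the fall at a position is tied to the rise beside it was not tested.

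The largest fall was at 886, where untreated libraries ran from 0.701% to 4.55% with a median of 2.07%, and DMS libraries from 0.537% to 2.91% with a median of 0.991%. Stops fell in 8 of 8 pairs, by 0.908 points on average (SD 0.744), but by 0.088 points in pairs 7 and 8 (limma adjusted p = 0.0437). At 847 the medians were 1.70% and 1.28%, and the fall was 0.727 points (limma adjusted p = 0.0416), with -2.57 points in pair 4 alone. At 916 they were 1.76% and 1.18%, with a fall of 0.636 points (SD 0.328, limma adjusted p = 0.0194). At 926 they were 0.989% and 0.451%, with a fall of 0.557 points (SD 0.334, limma adjusted p = 0.00816) and a log2 fold of -0.76 ± 0.13. All 4 fell in every pair. At 847, 886 and 926 the untreated libraries of pairs 3 and 4 were the highest, and at 847 the untreated libraries spanned 0.594% to 6.20%.

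The lower calls depended on how the pairing entered the fit. Without the pair block 1 lower call was made in the stretch, and none of the 4 named falls was called, with adjusted p values of 0.131 to 0.994. Leaving out 1 pair at a time ended the call at 847 for each of the 8 pairs, at 886 for pairs 1 to 7 and at 916 for pairs 1 and 2, and left 926 called each time. With the pair as a random block, 20 positions were again called lower, of which 11 were among the 20 above, and 847, 886 and 926 were not called, with adjusted p values of 0.498, 0.183 and 0.0583. Centring each library on its median raised the lower calls to 45 of 84 over the whole RNA, with 5 of the 45 at or before position 800, and gave 22 higher calls. Between pairs the median log2 stop change over the RNA ranged from -0.17 to 0.20.

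**Figure D3:**
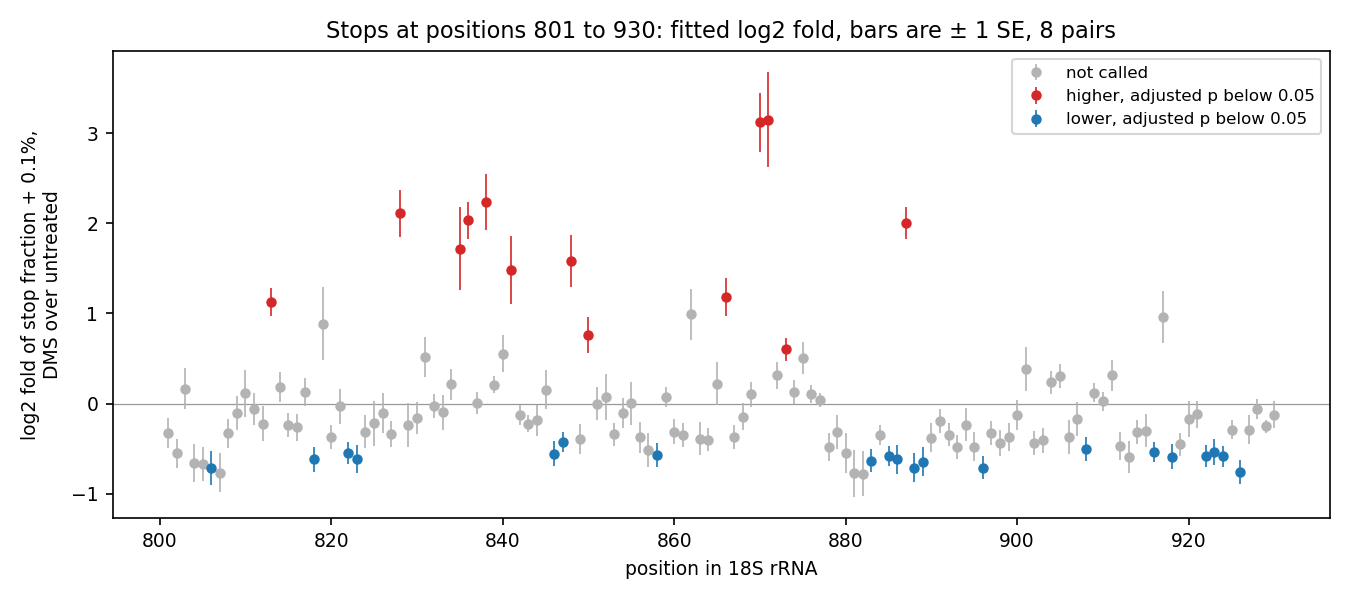
Fitted log2 fold of the stop fraction plus 0.1%, DMS over untreated, with bars of 1 SE from 8 pairs, at each position after 800. Lower calls (blue) lie between -0.76 and -0.42, in a narrow band beside many uncalled positions (grey), while higher calls (red) reach 3.15 at 871.

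The last 40 positions had little DMS stop signal. The window from 891 to 910 was lower in all 8 pairs, by 0.08 points on average (SD 0.0367), and that from 911 to 930 in 7 of the 8, by 0.148 points (SD 0.148), and they held 8 of the lower calls and no higher call. The windows with the largest mean rise were 851 to 870, with 0.482 points, 871 to 890, with 0.254 points, and 831 to 850, with 0.223 points, each higher in 6 of 8 pairs. Position 917, between the lower calls at 916 and 918, had medians of 1.47% and 2.95% and was higher in 7 of 8 pairs, with a limma adjusted p of 0.0767.

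Averaged over all 260 positions, stops had no settled direction. The mean stop fraction was 0.319%, 0.519% and 1.26% (lowest, median and highest) in untreated libraries and 0.434%, 0.529% and 0.998% with DMS. The difference per pair ran from -0.261 to 0.267 points, with a mean of 0.0263 (SD 0.184, n = 8 pairs) and -0.0422 without pairs 2 and 3. It was negative in pairs 4, 5 and 6 and positive in the other 5. The mean mutation fraction was 0.150%, 0.210% and 0.647% in untreated libraries and 0.215%, 0.311% and 0.755% with DMS. Its difference was positive in all 8 pairs, from 0.00247 points in pair 3 to 0.156 in pair 8, with a mean of 0.0949 points (SD 0.0494). A few positions carried much of these means. Without the 10 most changed positions the mutation mean was 0.0476 points and the stop mean -0.0742, and the medians over positions were 0.0481 and -0.0229 points. Over the rest of the RNA the mean differences were 0.0782 points for stops and 0.0831 points for mutations.

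Mutations rose most in the cluster from 831 to 850, which held 7 of the 16 calls, at 831, 835, 836, 838, 840, 841 and 848. The mean mutation fraction of this window had a median of 0.158% in untreated and 0.679% in DMS libraries, and the difference was 0.405 points (SD 0.229) and positive in 8 of 8 pairs. Every other window had a mean difference of at most 0.150 points. The same window held 6 higher stop calls, the most of the 13 windows.

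Within this cluster 836 had the largest mean rise, 3.50 points (SD 2.37), from a median of 0.185% to 4.60%, with a log2 fold of 3.12 ± 0.71 (limma adjusted p = 0.0425). The DMS libraries of 6 pairs held 3.90% to 6.22%, while those of pairs 3 and 4 held 0.380% and 0.329%, inside the untreated range of 0 to 1.06%. The call was lost on leaving out any 1 of pairs 1, 2, 5, 6, 7 and 8. At 835 the untreated libraries ran from 0 to 0.316% and the DMS libraries from 0.398% to 2.11%, with no overlap, a mean rise of 1.30 points (SD 0.773) and a limma adjusted p of 0.0181. Here too pairs 3 and 4 had the lowest DMS values, 0.458% and 0.398%. Position 841 was more even, with 0 to 0.810% untreated and 0.707% to 1.45% with DMS and a rise of 0.802 points (SD 0.228, limma adjusted p = 0.00758). Mutations at 838 and 840 rose by 0.971 and 0.736 points in 7 of 8 pairs, with pair 3 slightly lower at both, and those at 848 by 0.520 points in 8 of 8.

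Outside the cluster the leading mutation positions were 754, 786, 871, 696 and 716. At 754 untreated libraries ran from 0 to 2.99%, with a median of 0.327%, and DMS libraries from 0.917% to 5.63%, with a median of 1.64%. The rise was 1.39 points (SD 0.693, limma adjusted p = 0.0257) in 8 of 8 pairs, and the high end of both groups was pair 6. The call at 754 was lost on leaving out any 1 of pairs 1, 4, 7 and 8, with an adjusted p of up to 0.0779. The calls were lost likewise at 716 for 5 of the 8 pairs, at 786 for pair 7, at 835 for pairs 1, 7 and 8 and at 848 for 6 pairs, and at 696, 841 and 871 for none. At 786 the groups did not overlap, with untreated libraries up to 0.808% and DMS libraries from 0.968%, and the rise of 0.953 points (SD 0.351, limma adjusted p = 0.0165) was alike in the 3 sets, at 0.945, 0.909 and 1.01 points. At 696 mutations rose by 0.663 points (SD 0.341, limma adjusted p = 0.0112), and 691, 692 and 694 beside it were also called, with 0.210 to 0.377 points. No position before 714 was called for stops. The untreated library of pair 2 was at 0 at 696, as were those of pairs 3 and 4, and without pairs 2 and 3 position 696 had an adjusted p of 0.0526.

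Stops and mutations marked partly different positions. Both were called higher at 716, 835, 836, 838, 841, 848 and 871, which are 7 positions, 35% of the stop calls and 43.75% of the mutation calls. The other 13 stop calls and 9 mutation calls were not called in the other readout, which does not mean that it was unchanged there. The mean mutation difference was positive at 19 of the 20 higher stop calls. The mean stop difference was positive at 13 of the 16 mutation calls. Both counts include the 7 shared positions and have no share over the whole RNA beside them. Over the 260 positions, the Pearson correlation between the stop difference and the mutation difference of a pair was 0.0283 to 0.190, as a description of positions read from the same libraries. In the summed rise of a pair, a fall in either readout was counted as 0, so a share of 0% or 100% can stand for a fall. At 870, the top stop position, the mutation fraction changed by -0.0863 to 0.539 points, so mutations made up at most 8.74% of the summed rise in any pair. At 754 the reverse held, with mutations making up 66.7% to 100% of the summed rise.

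At the shared positions the balance differed between pairs. At 836 mutations made up 83.8% to 90.1% of the summed rise in pairs 1, 2, 5, 6, 7 and 8, but 0% in pair 3 and 2.61% in pair 4, where stops rose by 4.73 and 4.04 points. The 0% in pair 3 stands for a mutation difference of -0.101 points. Position 835 showed the same order, with 9.27% and 4.24% in pairs 3 and 4 and 68% to 100% in the others. At 871 the split ran between sets, from 0.0847% to 3.73% in pairs 1 to 4 and from 24.8% to 39.7% in pairs 5 to 8. At 838 mutations made up 0% to 26.2% in pairs 1 to 4 and 61.9% to 84.8% in pairs 5 to 8. Position 841 was less divided, with 47.4% to 60.5% in pairs 1 to 4 and 69% to 100% in the others. The enzyme behind each pair is not given in the table, so the part of the enzyme in these differences was not tested.

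**Figure D4:**
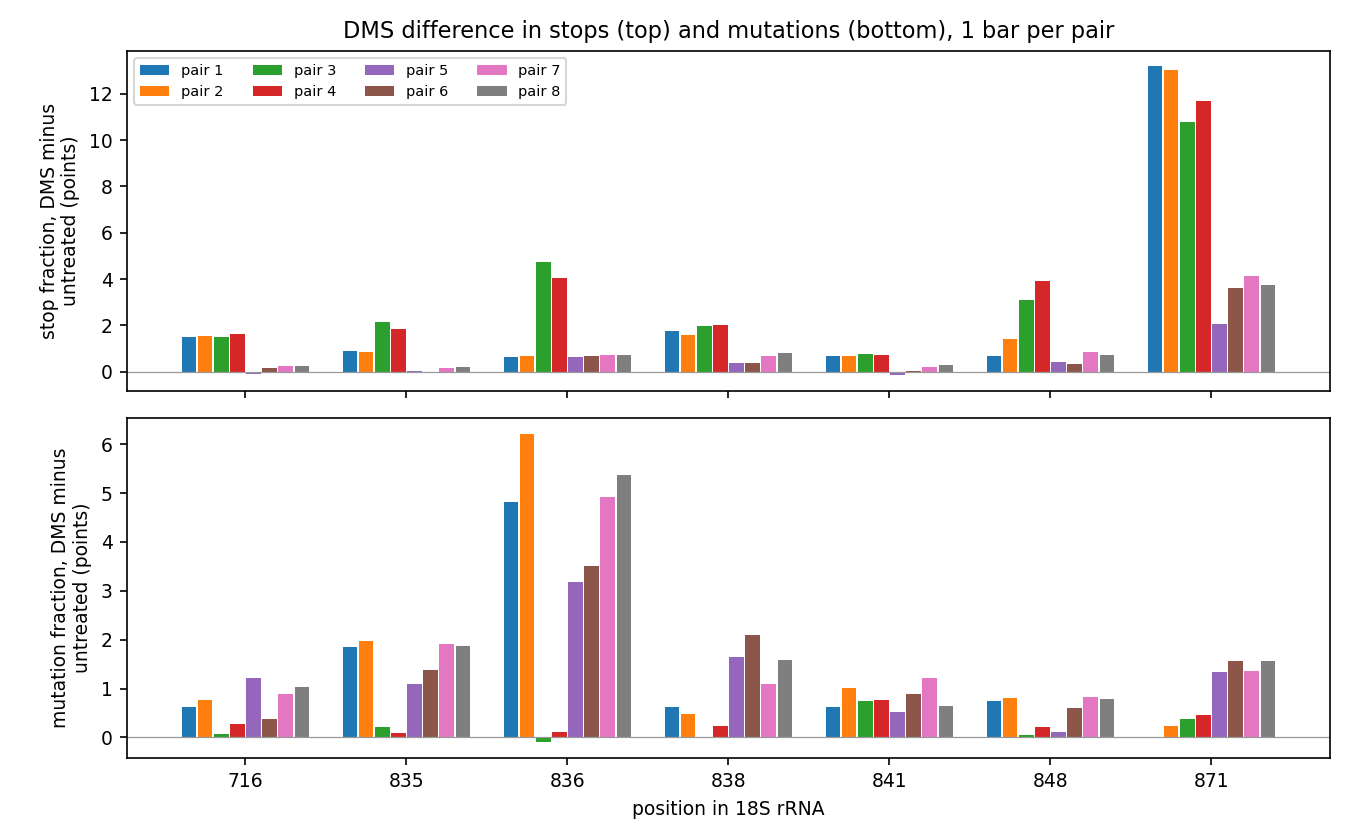
DMS minus untreated difference in stop fraction (top) and mutation fraction (bottom), in percentage points, with 1 bar for each of the 8 pairs at the 7 positions called higher for both. At 836 the bars of pairs 3 and 4 are the tallest for stops, at 4.73 and 4.04 points, and lie near 0 for mutations, and at 871 the stop bars of pairs 1 to 4 exceed 10 points.

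How well the pairs shared a profile also differed by readout. The Pearson correlation of the DMS differences over the 260 positions between any 2 pairs had a median of 0.702 for stops, with a range from 0.482 to 0.977, and a median of 0.353 for mutations, with a range from -0.0366 to 0.755. These points share libraries and neighbouring positions, and the values are a description.

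Stops without DMS were also strong at single positions. The highest untreated medians were at 800, 811, 913, 802 and 865, with 3.25%, 3.10%, 2.68%, 2.47% and 2.44%, and none of these was called. Position 800 stood at 0.359% and 0.112% in pairs 1 and 2 and at 2.74% to 6.15% in the other 6 untreated libraries. Position 865 stood at 3.33% to 6.56% in pairs 5 to 8 and at 0.719% to 1.56% in pairs 1 to 4. For mutations the highest untreated medians were at 750, 777, 768, 891 and 723, with 1.95%, 1.02%, 0.906%, 0.884% and 0.813%, and none was called either.

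Among the pairs outside the Mn2+ experiment, pairs 3 and 4 had the highest untreated stop fractions at 2 further positions, chosen after their values were seen. At 742 their untreated libraries held 12.1% and 26.9% and their DMS libraries 13.97% and 13.89%, the untreated library of pair 5 held 3.32%, and the remaining 11 libraries held at most 0.428%. At 882 the untreated libraries of pairs 3 and 4 held 15.9% and 21.1%, that of pair 5 held 3.19%, and the other 5 untreated libraries at most 1.96%. Neither position was called (limma adjusted p = 0.932 and 0.0949). At both, then, the untreated library of pair 5 came next after pairs 3 and 4 among the untreated libraries of the pairs. The DMS library of pair 5 was at 0.232% and 0.498%. In the Mn2+ experiment, the untreated library with Mn2+ also had its highest stop fraction of the stretch at 882, at 19.5%. In the untreated library without Mn2+, no position of the stretch exceeded 5.37%.

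The Mn2+ experiment holds 1 library in each condition, so its values have no error and no test. Without Mn2+, the mean stop fraction of the stretch was 0.671% untreated and 0.903% with DMS, and the mean mutation fraction 0.758% and 0.860%. With Mn2+ the stop means were 1.46% and 1.40%, and the mutation means 0.807% and 0.642%. The mean DMS difference was thus positive without Mn2+, at 0.232 and 0.102 points, and negative with it, at -0.0693 and -0.165 points. In the libraries with Mn2+, 23.1% and 31.9% of the stop values and 28.8% and 46.5% of the mutation values were 0, untreated and DMS in turn, against at most 3.85% in the libraries without it. Over the 125 positions above 0 for mutations in all 4 libraries, the mean DMS difference in mutations was 0.171 points without and 0.233 points with Mn2+. The sign with Mn2+ was thus the opposite of that over all positions. These 125 positions were selected on the measured values themselves, so the change of sign cannot show what part the positions at 0 play. For stops the sign with Mn2+ did not turn, with -0.0523 points over the 164 positions above 0 in all 4 libraries.

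Without Mn2+, all 20 higher and all 20 lower stop calls of the 8 pairs had the same sign in this separate pair, where 125 of the 260 positions were higher and 131 lower. With Mn2+ the same sign was seen at 13 of the 20 higher and 10 of the 20 lower stop calls, beside 99 of the 260 positions higher and 113 lower. For the 16 mutation calls it was seen at 14 without Mn2+, beside 142 of the 260 positions higher, and at 9 with Mn2+, beside 77 higher. The signs thus matched at fewer of the calls with Mn2+, where many values are 0, and the difference was not tested.

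The largest stop rise without Mn2+ was at 869, from 1.61% to 26.7%, followed by 871, from 0.730% to 9.22%, and 870, from 1.09% to 7.51%. In the DMS libraries of the 8 pairs 869 never exceeded 1.04%, and their highest stop lay at 870 in 6 pairs, at 871 in pair 1 and at 742 in pair 3. At 828, 836, 838, 848 and 887 the DMS values without Mn2+ were 4.53%, 1.24%, 3.87%, 6.84% and 4.34%, against 0.543%, 0.155%, 0.805%, 0.984% and 1.46% untreated. With Mn2+ the largest stop rises were at 722, from 2.12% to 5.62%, 802, from 2.42% to 5.00%, and 813, from 2.50% to 4.89%. Within 25 positions of 722, up to 90.2% of the values were 0 in a library with Mn2+, and within 25 positions of 813 up to 25.5%.

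For mutations 836 led without Mn2+, from 0.410% to 7.51%, before 835, from 0.596% to 3.34%, and 887, from 0.667% to 3.04%. With Mn2+ the mutation fraction at 836 went from 0.376% to 7.54%, nearly the same step as without it. At 871 it went from 0.894% to 4.43% with Mn2+ and from 0.801% to 1.13% without, while stops there went from 2.66% to 4.46% with Mn2+ and from 0.730% to 9.22% without. The higher values with Mn2+ at 747 and 734, of 8.33% and 7.41% against 0 untreated, lie where up to 88.2% of the values within 25 positions were 0 in a library.

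**Figure D5:**
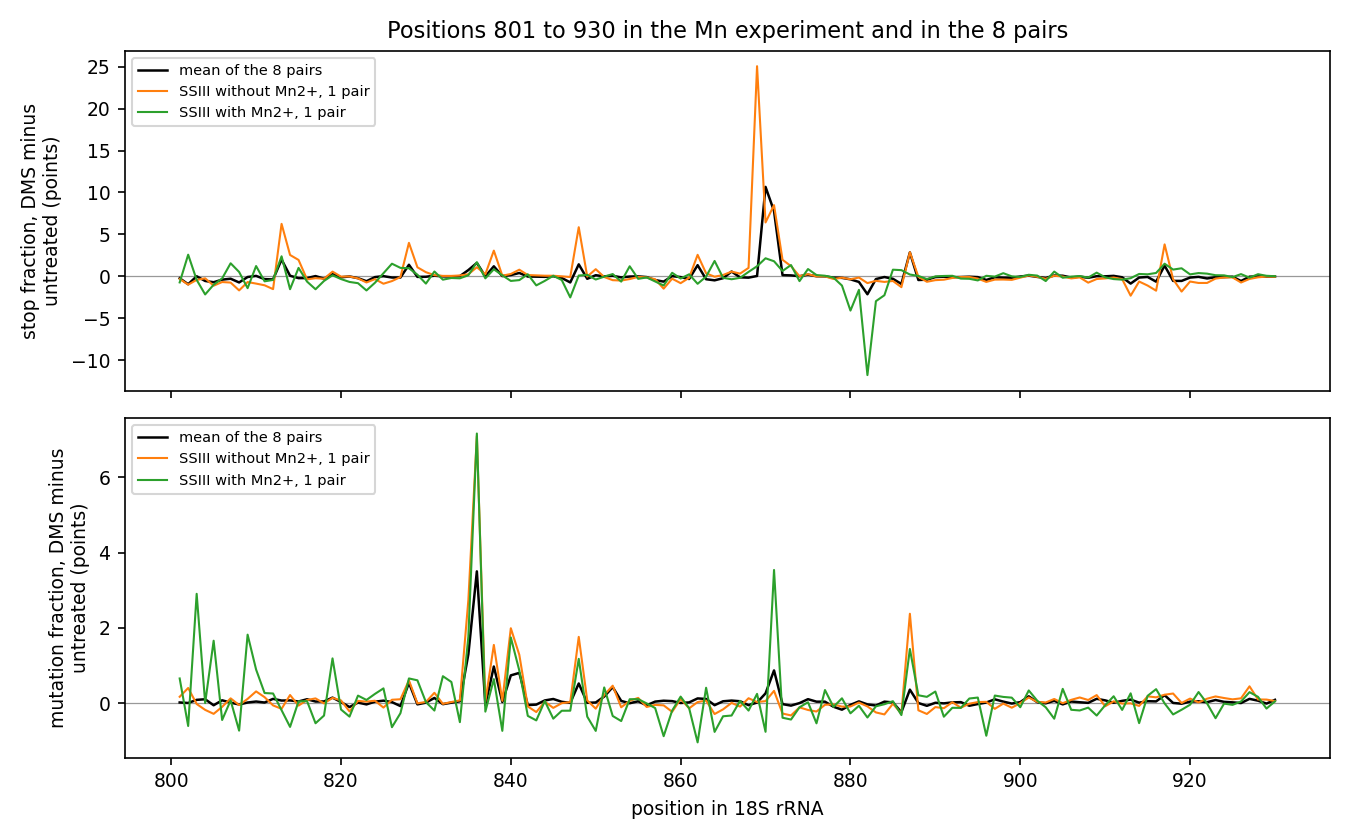
DMS minus untreated difference in stop fraction (top) and mutation fraction (bottom), in percentage points, at the positions after 800, for the mean of the 8 pairs (black) and for 1 SSIII pair without (orange) and 1 with (green) Mn2+. The stop peak lies at 869 in the orange line and at 870 in the black line, and both single pairs lie near each other for mutations at 836, with 7.10 and 7.17 points.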

How the data were processed

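Libraries of 18S cDNA were made with 18S primers, adaptor ligation and PCR, per the labels' protocols, and cutadapt and Bowtie2 were used, per the submitters' processing notes, whose versions are not given in the sources used here. In the table, the authors deposited stop and mutation fractions per library and position, multiplied to percent here, and scores that equal the fraction minus that of the linked control to within 1e-09 points. From the 20 18S libraries, the 4 of the Mn2+ experiment were matched to samples by name, and 16 were assigned only to the group untreated or DMS, which is all their names show. The 9 libraries on Xist were not used. No 2 libraries held identical values.

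The deposited link to a control defines the pairs, so the pair was a block in the fit. limma 3.58.1 in R 4.3.3 (lmFit, eBayes with trend) was run on log2(percent + 0.1) over all positions in which every library had a value, with Benjamini-Hochberg adjustment and a threshold of 0.05. A fold change on this scale understates changes of low values. The step was tested on simulated data. Tables and plots used Python 3.11.15, pandas 2.3.3, numpy 2.4.6 and Matplotlib 3.10.9.

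Named positions are, per readout, the 8 largest rises and 4 largest falls among calls with the same sign in every pair, the 5 highest untreated medians, and the 3 largest rises per metal state, except where the text says otherwise; other called positions are listed as members of the called lists. The members, lists and tests were chosen with earlier results of these data known. Alternatives were other pseudocounts, percentage points, no or a random pair block, a filter on zeros, centring, no trend, a stricter threshold, the Mn2+-free pair added, each pair left out, pairs 2 and 3 left out and averages per name set.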

Additional observations from a re-analysis of the deposited data

Results flagged for a closer look

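The mean stop fraction over the stretch in the untreated library of pair 4 was 1.26%, far from the 0.319% to 0.697% of the other 7 untreated libraries. The stop difference at 847 was -2.57 points in pair 4, against -1.15 to -0.138 points in the other pairs, and that at 916 was -1.33 points in pair 6, against -0.752 to -0.282 points. These 3 stood out among 36 groups of 8 values examined, and chance flags about 1 in 20 groups. In the Mn2+ experiment the mean stop difference was 0.232 points without and -0.0693 points with Mn2+, and the mean mutation difference 0.102 and -0.165 points. The signs are opposite, each rests on 1 library per condition, and the differences were not tested.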

How the results depend on the processing

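With 20 higher and 20 lower stop calls and 16 higher mutation calls as reported, a pseudocount of 1% gave 13 higher stop calls and one of 0.01% gave 5 mutation calls. In percentage points without a log the counts were 9, 9 and 10, and at an adjusted p below 0.01 they were 10, 2 and 1. With no replicate block there were 17 higher and 1 lower stop calls and 10 mutation calls, and with a random replicate block 26 mutation calls and 20 lower stop calls, of which 11 were among those reported. Centring libraries on their median gave 22 higher and 45 lower stop calls, and adding the pair without Mn2+ gave 33 lower. Leaving out 1 pair at a time gave 11 to 21 higher and 7 to 14 lower stop calls and 5 to 14 mutation calls. The fewest were without pair 3 for higher stops, without pair 1 for lower stops and without pair 8 for mutations. The mean stop difference then ran from -0.00807 to 0.0673 points and the mean mutation difference from 0.0861 to 0.108.

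The next 2 alternatives, leaving out pairs 2 and 3 together and averaging per name set, were chosen after seeing the data. Without pairs 2 and 3 there were 11 higher and 7 lower stop calls. With the pair differences averaged per name set, which leaves 3 values, limma called 0, 0 and 0 positions, also over the whole RNA. At an unadjusted p below 0.05 in that fit, 16 positions of the stretch were higher and 46 lower for stops, and 45 higher for mutations. These unadjusted counts have no share over the whole RNA beside them. The stretch counts of the other alternatives have none either, except for lower stop calls with centring. For the 20 positions named for a rise or fall, 85 of 380 alternatives ended the call and 0 reversed it. These positions were named for having the same sign in every pair. Leaving out pairs, averaging them or changing the pseudocount or scale therefore could not turn the sign. The fits with other blocks, without trend or with the filter on zeros kept the same fold. The absence of reversals is thus no measure of stability. In the Mn2+ experiment the mean log2 ratio of DMS to untreated was 0.12 and -0.21 for stops and 0.10 and -0.63 for mutations, in each case without and then with Mn2+. Over positions above 0 in all 4 libraries the mutation difference averaged 0.171 and 0.233 points. The causes were not tested. Depth is unknown, so no difference can be set against counting error, and values at 0 have no known upper limit.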
